A study of Homo sapiens with 9 samples.

Results

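The genes described here are 9 markers of early neuronal differentiation: NEUROG2, INSM1, MYT1, ONECUT2, ELAVL3, ELAVL4, DCX, TUBB3 and STMN2. They were picked by symbol from a table of 62710 genes, with earlier results of these data known, and each symbol matched 1 Ensembl identifier. The samples were wild-type (WT) cultures of the established human embryonic stem cell line H9, on the way to neuroepithelium. All cultures spent 72 h in the pluripotency medium mTeSR1 on silicone (PDMS) plates coated with Matrigel and then 48 h in N2B27 medium with SB431542 and LDN, which together block the TGF-beta and BMP branches of SMAD signalling. During a further 24 h under the same dual SMAD inhibition the plate was curved, either concave or convex, or was kept flat (the control), with 3 libraries of polyadenylated RNA for each shape, numbered 1 to 3. Whether the 3 libraries of a shape are separate cultures is not given in the labels, and the spread that the p-values rest on may therefore be technical.

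In the developing nervous system, dividing neuroepithelial progenitors are held in an undifferentiated state by SOX2, Notch signalling and the repressor REST. Proneural transcription factors then start neuronal differentiation, zinc finger and homeodomain factors act downstream of them, and the differentiating cell turns on neuronal RNA-binding proteins and a neuronal set of microtubule proteins. Neuroepithelium after a few days of dual SMAD inhibition is still an early progenitor stage, at which these mRNAs are usually scarce. The samples are bulk RNA, in which fewer cells of a type and less RNA per cell cannot be told apart.

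The libraries held 49420082 to 64763412 counts. Levels are given as CPM, read counts scaled to library size with TMM factors, and 3 counts, the number used here as the floor, came to 0.0438 to 0.0632 CPM. The neural progenitor genes SOX2 and NES were abundant in every library, at 470 to 822 CPM and 822 to 1268 CPM, whereas PAX6, a marker of later neuroectoderm, stood at 1.09 to 7.10 CPM and the pluripotency factor POU5F1 at 206 to 512 CPM. The library numbered 2 on the flat plate stood farthest from the rest: in chi-square tests of its counts against each other library the value per degree of freedom ran from 133.1 to 383.5, whereas pairs that did not hold it reached at most 160.7. The 3 libraries numbered 3, one for each shape, also differed from the other 6 in many genes, as described further on.

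All 9 genes are protein coding in GENCODE v29, whose coordinates on GRCh38 follow. DCX lies on the minus strand of chromosome X at chrX:111293779-111412429, MYT1 on the plus strand at chr20:64102394-64242253, ELAVL4 on the plus strand at chr1:50048014-50203786 and TUBB3 on the plus strand at chr16:89921392-89938761. The others are STMN2 (given further on), ELAVL3 (chr19:11451326-11481046, minus), INSM1 (chr20:20368121-20370949, plus, 1 exon), ONECUT2 (chr18:57435685-57491297, plus) and NEUROG2 (chr4:112513516-112516172, minus). TUBB3 shares 35.8% of its exon bases with a same-strand gene, AC092143.1, and ELAVL3 shares 5.38% with AC008481.3. Both partners had 0 counts in all 9 libraries, so how reads of the shared exons were assigned cannot be seen from the table, and TUBB3 and ELAVL3 values carry that uncertainty. NEUROG2 overlaps the antisense gene AC023886.1 by 92 bases, and AC023886.1 had 10 counts over all libraries.

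RefSeq promoter windows (GRCh38.p14, 250 bases before to 50 after the start site) were matched for 6 of the 9 genes: DCX, TUBB3, ELAVL4, MYT1, ONECUT2 and NEUROG2. The 250 bases before the start site are printed for DCX, MYT1 and ELAVL4, which were lower in every library numbered 3, and for TUBB3, which was higher in every one, because these 4 genes carry the pattern described below. They are the windows nearest to a principal transcript of each gene and are read 5′ to 3′ on the gene's own strand: chrX:111412193-111412442 (minus) for DCX, chr20:64164202-64164451 (plus) for MYT1, chr1:50108670-50108919 (plus) for ELAVL4 and chr16:89923092-89923341 (plus) for TUBB3. Capitals mark E-boxes, CANNTG, the kind of site that proneural basic helix-loop-helix factors bind.
DCX: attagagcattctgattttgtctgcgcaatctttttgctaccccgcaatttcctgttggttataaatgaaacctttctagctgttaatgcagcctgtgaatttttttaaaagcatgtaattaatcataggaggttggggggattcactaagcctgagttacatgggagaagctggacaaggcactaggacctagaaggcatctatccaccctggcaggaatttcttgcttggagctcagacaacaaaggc
MYT1: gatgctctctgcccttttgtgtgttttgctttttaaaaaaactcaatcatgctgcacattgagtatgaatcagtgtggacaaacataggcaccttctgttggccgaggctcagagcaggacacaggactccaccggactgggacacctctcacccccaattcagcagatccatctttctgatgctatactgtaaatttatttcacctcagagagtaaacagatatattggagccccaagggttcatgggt
ELAVL4: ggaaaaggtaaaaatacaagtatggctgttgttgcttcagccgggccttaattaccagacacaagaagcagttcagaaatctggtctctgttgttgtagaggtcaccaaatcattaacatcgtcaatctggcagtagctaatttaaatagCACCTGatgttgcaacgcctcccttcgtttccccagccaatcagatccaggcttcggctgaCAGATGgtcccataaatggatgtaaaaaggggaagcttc
TUBB3: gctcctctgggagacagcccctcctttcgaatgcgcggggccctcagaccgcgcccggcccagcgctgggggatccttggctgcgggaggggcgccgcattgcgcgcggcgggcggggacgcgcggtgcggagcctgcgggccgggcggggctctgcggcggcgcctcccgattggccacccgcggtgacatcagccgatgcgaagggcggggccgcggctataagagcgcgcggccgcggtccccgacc

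E-boxes were searched as CANNTG, which reads the same on both strands, so that a match on either strand counts once. In the full windows of 300 bases ELAVL4 had 3, starting 100 and 39 bases before the start site and 25 bases after it. ONECUT2 had 1, and DCX, MYT1, TUBB3 and NEUROG2 had 0. Such a match occurs in 68.7% of the 35116 windows of all genes. The ELAVL4 match at 39 bases before the start reads CAGATG, a form found on either strand in 14.7% of all windows, and the ONECUT2 match reads CAGCTG, found in 17.9%. The windows also differ in base composition, with 79.0% G and C in TUBB3 against 43.0% in DCX, 44.3% in ELAVL4 and 48.0% in MYT1. A match describes the letters of the window and does not show that a factor binds there.

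To order the genes by level, CPM was divided by the median length of a gene's principal transcripts in kilobases. TUBB3, the neuronal beta-tubulin, had the highest mean level, 6.45 ± 2.38 CPM per kilobase (SD over all 9 libraries). It was followed by DCX, a microtubule-binding protein of migrating neurons, at 4.53 ± 1.44, and STMN2, a stathmin that destabilises microtubules in growth cones, at 4.50 ± 3.62 CPM per kilobase. The order of these 3 changed between libraries, since TUBB3 was above DCX in 5 of 9 and DCX above STMN2 in 6 of 9. MYT1, ELAVL3 and ELAVL4 formed a lower tier at 1.28 ± 0.715, 0.940 ± 0.534 and 0.850 ± 0.243 CPM per kilobase, and neighbours within it also changed places, with MYT1 above ELAVL3 in 5 of 9 libraries and ELAVL3 above ELAVL4 in 5 of 9. STMN2 was above MYT1, and ELAVL4 above INSM1, in 9 of 9 libraries. The lowest were INSM1 at 0.109 ± 0.104, ONECUT2 at 0.105 ± 0.0251 and NEUROG2 at 0.0423 ± 0.0340 CPM per kilobase. INSM1 exceeded ONECUT2 in 4 of 9 libraries and ONECUT2 exceeded NEUROG2 in 8 of 9.

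**Figure D1:**
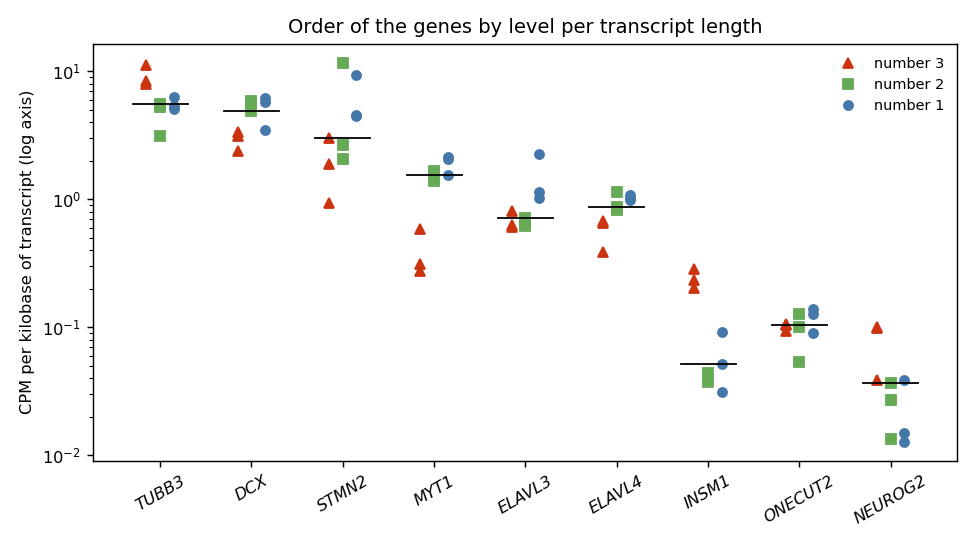
Level of each of the 9 genes in each library as CPM per kilobase of transcript, on a log axis, ordered by the mean over 9 libraries; horizontal lines are medians, and red triangles, green squares and blue circles are libraries numbered 3, 2 and 1. The concave library numbered 2 had 0 counts of INSM1 and has no point there; the red triangles lie at the bottom of the MYT1, DCX and ELAVL4 columns and at the top of the TUBB3 and INSM1 columns.

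Among the transcription factors, NEUROG2, the proneural factor that starts neurogenesis, was close to the floor. Its counts were 2, 2 and 11 in concave libraries 1, 2 and 3, 6, 4 and 5 in the convex ones and 2, 4 and 13 in the flat ones, which was too few for it to be tested. Concave 3 and flat 3 held the highest NEUROG2 counts of the 9, and convex 3 did not stand out. INSM1, a zinc finger factor that in the mouse promotes the formation of basal progenitors, had 10, 0 and 32 counts in concave libraries 1, 2 and 3, 6, 8 and 46 in the convex ones and 15, 5 and 33 in the flat ones. The 3 libraries numbered 3 held the 3 highest INSM1 counts, at 0.663, 0.810 and 0.576 CPM in the concave, convex and flat library, while the other 6 lay between 0 and 0.258 CPM.

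MYT1, a zinc finger factor that in Xenopus promotes neuronal differentiation, behaved in the opposite way. It was at 11.3, 9.25 and 1.72 CPM in concave libraries 1, 2 and 3, at 11.9, 8.72 and 1.53 CPM in the convex ones and at 8.57, 7.68 and 3.25 CPM in the flat ones. Every library numbered 3 was below every library numbered 1 or 2, and the flat library numbered 3 was the highest of the 3. ONECUT2, a cut homeodomain factor of motor neurons and retinal cells in the mouse, was at 2.22, 2.06 and 1.51 CPM in concave libraries 1, 2 and 3, at 2.05, 1.63 and 1.71 CPM in the convex ones and at 1.46, 0.863 and 1.68 CPM in the flat ones. The library numbered 3 was the lowest of the concave ONECUT2 values and the highest of the flat ones.

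ELAVL3 and ELAVL4 encode HuC and HuD, neuronal proteins that bind AU-rich elements in mRNA. ELAVL3 was at 10.7, 3.40 and 3.83 CPM in concave libraries 1, 2 and 3, at 4.81, 3.05 and 2.96 CPM in the convex ones and at 5.38, 2.93 and 2.88 CPM in the flat ones. In each shape the library numbered 1 was the highest for ELAVL3, and those numbered 2 and 3 were close to each other. ELAVL4 was at 1.64, 1.40 and 1.03 CPM in concave libraries 1, 2 and 3, at 1.57, 1.30 and 0.616 CPM in the convex ones and at 1.72, 1.81 and 1.08 CPM in the flat ones. The 3 libraries numbered 3 were the lowest of the 9 for ELAVL4.

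Of the microtubule genes, DCX was at 32.5, 30.8 and 12.4 CPM in concave libraries 1, 2 and 3, at 30.3, 29.5 and 16.4 CPM in the convex ones and at 18.3, 25.8 and 17.7 CPM in the flat ones. Each library numbered 3 was below all those numbered 1 and 2, by a narrow margin in the flat cultures, where number 1 was also low. TUBB3 was at 9.46, 9.23 and 14.8 CPM in concave libraries 1, 2 and 3, at 11.1, 9.81 and 19.9 CPM in the convex ones and at 8.90, 5.52 and 14.0 CPM in the flat ones. All 3 libraries numbered 3 were above the other 6 for TUBB3. STMN2, on the plus strand at chr8:79610814-79666175, was the most variable of the 3, at 20.7, 4.57 and 4.18 CPM in concave libraries 1, 2 and 3, at 9.89, 5.94 and 2.09 CPM in the convex ones and at 10.1, 25.9 and 6.70 CPM in the flat ones. Its library numbered 3 was the lowest of each shape, but flat 3 was above concave 2 and convex 2, so the numbers overlapped.

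**Figure D2:**
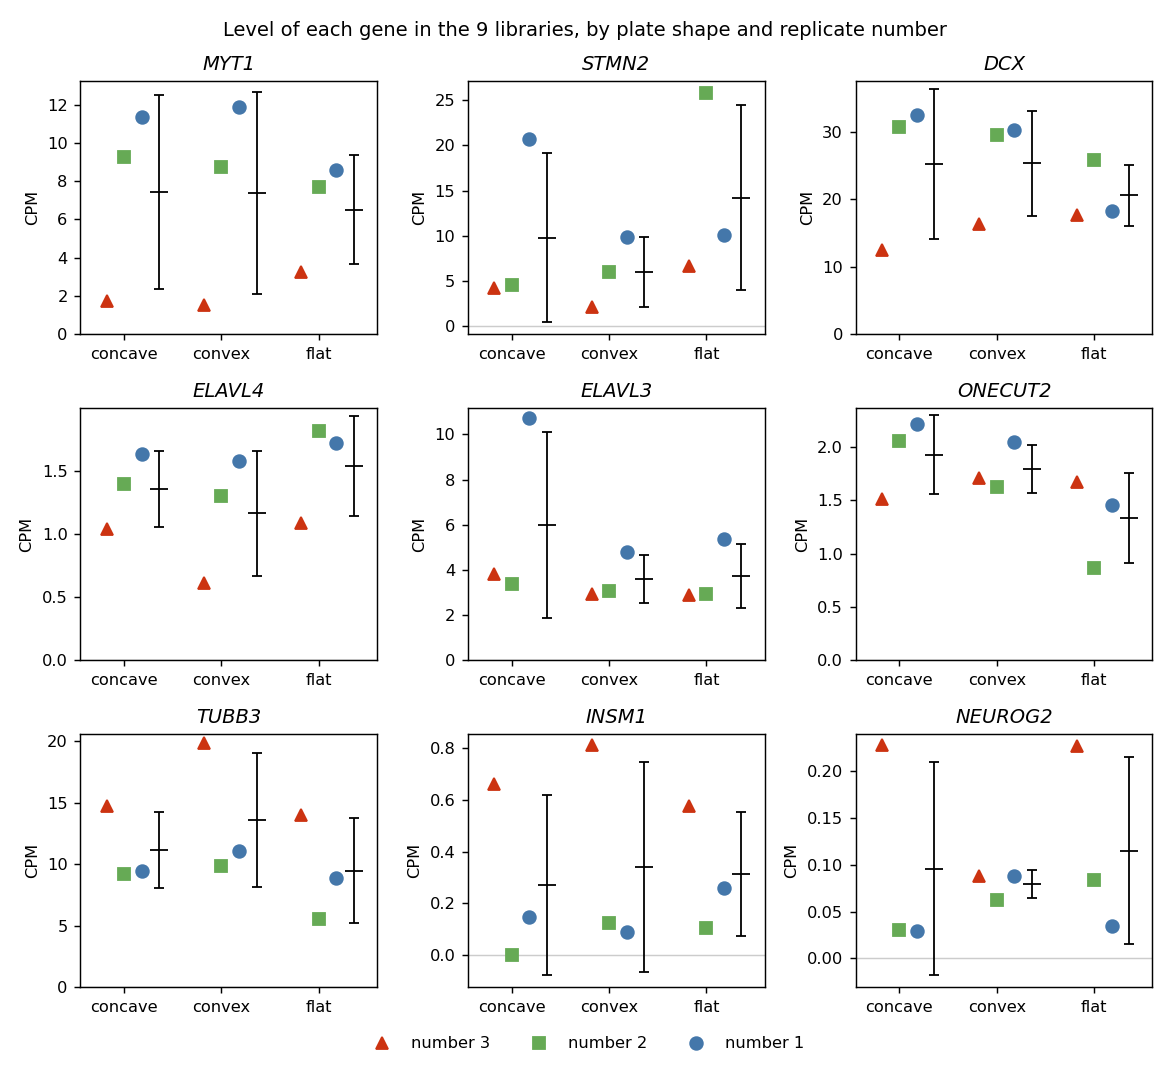
CPM of each of the 9 genes in the concave, convex and flat libraries, by replicate number (red triangle 3, green square 2, blue circle 1), with the mean and SD of each shape as black bars (n = 3); each panel has its own axis. Libraries numbered 3 are lowest in the MYT1, DCX and ELAVL4 panels and highest in the TUBB3 and INSM1 panels in all 3 shapes, and the SD bars of the shapes overlap in every panel.

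The first question of the design is whether bending the plate changed these mRNAs. No difference passed the test: 0 of the 8 tested genes were called when concave or convex cultures were set against flat ones, or concave against convex ones (edgeR quasi-likelihood test, Benjamini-Hochberg adjusted p under 0.05). The background was 0 of 23075 genes, or 0%, in each comparison. At an unadjusted p under 0.05 there were 1047 genes for concave and 2135 for convex cultures against flat ones and 65 between the curved shapes, with 0 of the 8 among them. DESeq2 called 0, 1 and 0 genes and limma voom 0, 0 and 0, in the same order of comparisons, and the F test over the 3 shapes called 0 genes (897 at an unadjusted p under 0.05). The values of all 9 genes overlapped between the shapes in every comparison, whereas 6.73% of all genes did not overlap between concave and flat, 16.7% between convex and flat and 3.56% between concave and convex cultures.

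Group means differed most for STMN2, ELAVL3 and ONECUT2. STMN2 averaged 9.80 ± 9.40 CPM in concave cultures, 5.97 ± 3.90 CPM in convex cultures and 14.2 ± 10.2 CPM in flat cultures (SD, n = 3 each). Its log2 difference was -0.53 ± 0.738 (SE) between concave and flat and -1.25 ± 0.748 between convex and flat cultures, with edgeR adjusted p = 0.908 and 0.541. The difference between convex and flat was -0.491 without flat 2, -0.839 without convex 3 and -1.827 without convex 1. ELAVL3 averaged 5.99 ± 4.12 CPM in concave, 3.61 ± 1.04 CPM in convex and 3.73 ± 1.43 CPM in flat cultures. Its concave mean rests on concave 1 at 10.7 CPM, and its log2 difference from flat was 0.69 ± 0.466 (edgeR adjusted p = 0.841) with that library and -0.05 without it. ONECUT2 averaged 1.93 ± 0.370 CPM in concave, 1.79 ± 0.222 CPM in convex and 1.33 ± 0.421 CPM in flat cultures, with log2 differences from flat of 0.53 ± 0.326 in concave and 0.42 ± 0.326 in convex cultures (edgeR adjusted p = 0.841 and 0.606).

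The other genes had means that lay within the spread of their libraries. TUBB3 averaged 11.2 ± 3.13 CPM in concave, 13.6 ± 5.47 CPM in convex and 9.48 ± 4.28 CPM in flat cultures, with log2 differences of 0.23 ± 0.379 and 0.52 ± 0.380 from flat. DCX averaged 25.2 ± 11.1, 25.4 ± 7.79 and 20.6 ± 4.54 CPM in concave, convex and flat cultures, with log2 differences of 0.29 ± 0.361 and 0.30 ± 0.361 from flat. MYT1 averaged 7.44 ± 5.06, 7.38 ± 5.30 and 6.50 ± 2.85 CPM, ELAVL4 1.36 ± 0.302, 1.16 ± 0.494 and 1.54 ± 0.396 CPM and INSM1 0.270 ± 0.348, 0.341 ± 0.406 and 0.313 ± 0.240 CPM in the same order of shapes. The SE of a log2 difference in the 3 comparisons ran from 0.324 for ONECUT2 to 1.21 for INSM1. Differences well above the SE could also be missed with these libraries. STMN2, at -1.25 ± 0.748 between convex and flat cultures, had an edgeR unadjusted p of 0.125. The comparisons with flat share its 3 libraries.

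Set side by side by replicate number, 3 of the 9 genes kept 1 direction in all 3 numbers between concave and flat, 4 between convex and flat and 3 between concave and convex libraries. Among all tested genes 23.8%, 49.6% and 21.7% did so in the same order of comparisons. For only 9 genes the counts are close to those shares. The directions that follow describe single genes and are no result about plate shape. TUBB3 was higher in the curved than in the flat library of the same number in 3 of 3 numbers for both shapes, by log2 differences of 0.09, 0.74 and 0.07 for concave and 0.32, 0.83 and 0.50 for convex (numbers 1, 2 and 3). ELAVL4 was lower than flat in 3 of 3 numbers for both shapes, at -0.07, -0.37 and -0.06 for concave and -0.12, -0.47 and -0.78 for convex. ELAVL3 was higher in the concave library than in both others in 3 of 3 numbers. In the convex library STMN2 was lower and ONECUT2 higher than in the flat one in 3 of 3 numbers. For STMN2 the log2 differences were -0.03, -2.12 and -1.66, so number 1 hardly differed. For ONECUT2 they were 0.48, 0.89 and 0.03, so number 3 hardly differed. Between concave and convex libraries TUBB3 was lower and ELAVL4 higher in 3 of 3, with smallest log2 differences of -0.09 and 0.05. MYT1 was higher than flat in both curved libraries numbered 1 and 2 and lower in those numbered 3, where its log2 difference was -0.90 for concave and -1.07 for convex. DCX showed the same change of sign, with -0.51 for concave and -0.11 for convex in number 3. With the replicate number as a block in the fit, 0 genes and 0 of the 8 were called in each comparison.

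**Figure D3:**
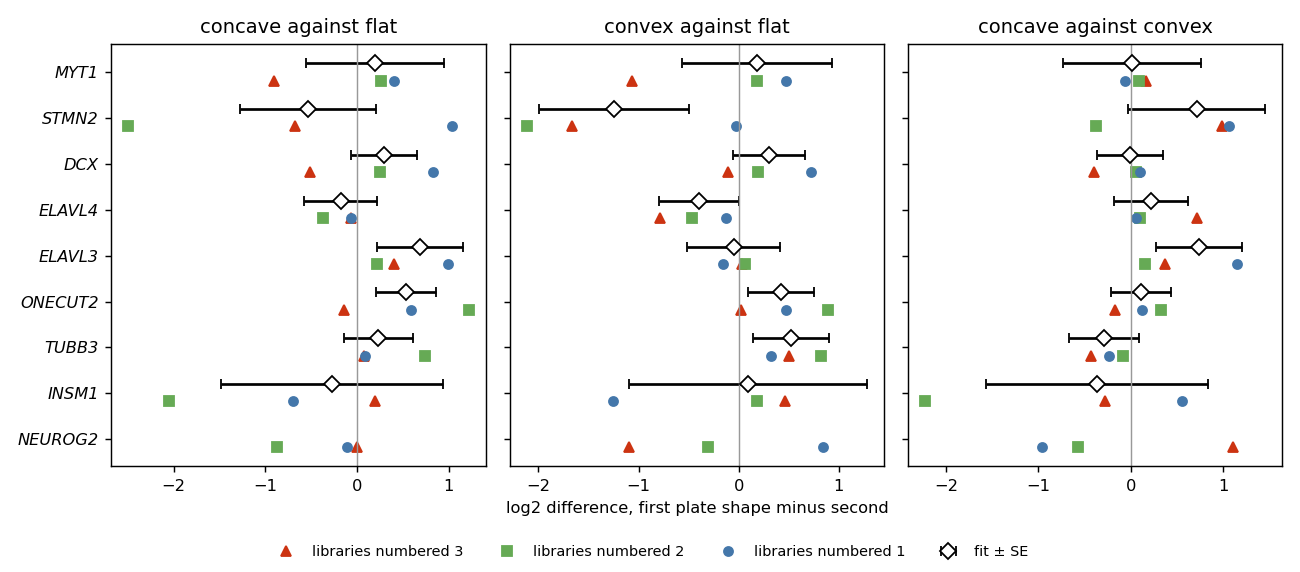
Log2 differences between plate shapes for each gene in 3 panels, each the first named shape minus the second. Open diamonds with bars are the fit over 9 libraries ± SE, and coloured points are the differences between libraries of the same number; the fits stay within 1.25 of 0 and the same-number differences scatter on both sides of 0 for most genes.

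The clearest pattern among the 9 genes ran across plate shapes and followed the replicate number. With plate shape in the fit, 6 of the 8 tested genes passed the test of the 3 libraries numbered 3 against the 6 numbered 1 and 2 (edgeR adjusted p under 0.05): INSM1 and TUBB3 were higher and MYT1, STMN2, DCX and ELAVL4 lower. In the same comparison 16.3% of all tested genes were called, 7.59% higher and 8.68% lower. The median log2 difference was -0.71 over the 8 and 0.00 over all genes. Number 3 was set apart after these libraries were seen to differ, and the 9 genes were chosen with earlier results of these data known. The p-values do not allow for either choice, and 6 of 8 beside 16.3% is no independent evidence about such genes. What the number stands for is not given in the labels used here.

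MYT1 had the largest fall and the smallest p of the 8. It averaged 2.17 ± 0.941 CPM in libraries numbered 3 (SD, n = 3) and 9.57 ± 1.66 CPM in those numbered 1 and 2 (n = 6), a log2 difference of -2.16 ± 0.288 (SE; edgeR adjusted p = 0.00113). The difference was -2.55 in concave, -2.71 in convex and -1.31 in flat cultures. A test of whether it differed between shapes gave an unadjusted p of 0.0243 and an edgeR adjusted p of 0.891, and 0 of 23075 genes (0%; 1134 at an unadjusted p under 0.05) passed that test. MYT1 stayed called when any of the 9 libraries was left out in turn, with an edgeR adjusted p of at most 0.0178.

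INSM1 moved the other way by a similar amount but at much lower counts. It averaged 0.683 ± 0.118 CPM in libraries numbered 3 and 0.120 ± 0.0840 CPM in those numbered 1 and 2, a log2 difference of 2.56 ± 0.598 (edgeR adjusted p = 0.0169). It was no longer called without convex 3, concave 3 or convex 1 (edgeR adjusted p = 0.134, 0.0827 and 0.0512). INSM1 met the low-count filter because of its counts in libraries numbered 3, where it is high. Its call is therefore not independent of that rise. NEUROG2 averaged 0.181 ± 0.0805 CPM in libraries numbered 3 and 0.0548 ± 0.0272 CPM in those numbered 1 and 2. Fitted with no filter on low counts, its log2 difference was 1.71 ± 0.789 and did not pass (edgeR adjusted p = 0.172). ONECUT2 averaged 1.63 ± 0.105 CPM in libraries numbered 3 and 1.71 ± 0.505 CPM in those numbered 1 and 2, with a log2 difference of -0.01 ± 0.264 (edgeR adjusted p = 0.98).

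The microtubule genes were split. TUBB3 rose to 16.2 ± 3.18 CPM in libraries numbered 3, against 9.004 ± 1.87 CPM in those numbered 1 and 2, a log2 difference of 0.85 ± 0.165 (edgeR adjusted p = 0.00731). DCX fell to 15.5 ± 2.75 CPM in libraries numbered 3, against 27.9 ± 5.19 CPM in those numbered 1 and 2, a log2 difference of -0.82 ± 0.195 (edgeR adjusted p = 0.0178). Its difference was -1.35 in concave, -0.86 in convex and -0.30 in flat cultures, and the test between shapes gave an unadjusted p of 0.0574. TUBB3 was no longer called without convex 3 (edgeR adjusted p = 0.076), and DCX without convex 3 or concave 3 (edgeR adjusted p = 0.118 and 0.0826). STMN2 averaged 4.33 ± 2.31 CPM in libraries numbered 3 and 12.8 ± 8.52 CPM in those numbered 1 and 2, a log2 difference of -1.63 ± 0.465 (edgeR adjusted p = 0.0385). The STMN2 call was lost without any of 7 libraries, the outlying flat 2 among them (edgeR adjusted p = 0.141), leaving concave 2 and flat 1 as the libraries whose omission kept it.

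The RNA-binding genes were lower or overlapping. ELAVL4 fell to 0.911 ± 0.257 CPM in libraries numbered 3, against 1.57 ± 0.193 CPM in those numbered 1 and 2, a log2 difference of -0.81 ± 0.234 (edgeR adjusted p = 0.0397). Its call was lost without any of 7 libraries, concave 2 and flat 2 being the exceptions, with edgeR adjusted p up to 0.247. ELAVL3 averaged 3.22 ± 0.528 CPM in libraries numbered 3 and 5.05 ± 2.96 CPM in those numbered 1 and 2 and was not called, at a log2 difference of -0.61 ± 0.356 (edgeR adjusted p = 0.28). Number 3 and numbers 1 and 2 did not overlap for DCX, ELAVL4 and MYT1 (all below) and for TUBB3 and INSM1 (all above), 5 genes of 9, beside 24.2% of all tested genes. The choice of the genes bears on this count too. The 9 CPM values of a library summed to 40.4 to 48.1 in number 3 and to 54.7 to 88.8 in numbers 1 and 2.

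**Figure D4:**
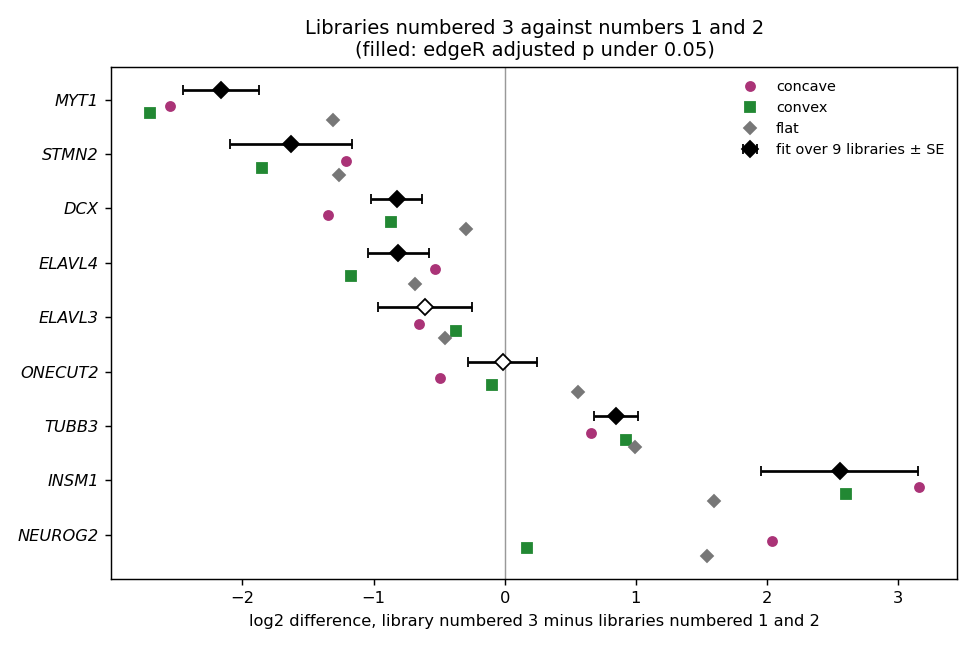
Log2 difference of libraries numbered 3 from those numbered 1 and 2 for each gene: black diamonds with bars are the fit over 9 libraries ± SE (filled where called by edgeR at an adjusted p under 0.05), and coloured points are the difference within each plate shape. The fitted values run from -2.16 for MYT1 to 2.56 for INSM1, with ONECUT2 at -0.01, and NEUROG2 has no fit.

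Comparing the 3 numbers with each other gave ELAVL3 its own pattern. The F test over numbers called 4 of the 8 genes, MYT1, TUBB3, ELAVL3 and INSM1 (edgeR adjusted p = 0.0049, 0.0137, 0.0193 and 0.038), against 11.8% of all genes. Without convex 3 that test called 0 of the 9 genes tested (6 at an unadjusted p under 0.05); it called 1 without concave 1 or convex 2 and 2 without concave 3 or convex 1. The choice of the genes, and for INSM1 the filter, bear on the count of called genes here as well. ELAVL3 averaged 3.22 ± 0.528 CPM in number 3, 3.13 ± 0.248 CPM in number 2 and 6.98 ± 3.28 CPM in number 1 (n = 3 each). Its log2 difference was -1.05 ± 0.227 for number 3 against number 1 (edgeR adjusted p = 0.018; 14.7% of all genes called) and 0.03 ± 0.228 for number 3 against number 2 (edgeR adjusted p = 0.95; 11.6% called). For number 2 against number 1 the ELAVL3 difference was -1.08 ± 0.228, with an unadjusted p of 0.00107 and an edgeR adjusted p of 0.367. That comparison called 0 of all genes (0%), with 1970 at an unadjusted p under 0.05. MYT1 and TUBB3 were called in number 3 against number 1 and in number 3 against number 2, at log2 differences of -2.31 and -1.998 for MYT1 and 0.71 and 1.00 for TUBB3.

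Lists of other neuronal genes showed which relatives of the 9 moved in number 3. Of 28 proneural and neuronal transcription factors 12 were counted well enough to be tested; 1 was called higher and 4 lower, 41.7% of the 12 beside 16.3% of all tested genes, with a median log2 difference of -0.32. Among the lower ones were NHLH2 (log2 difference -0.77, edgeR adjusted p = 0.0106), SOX11 (-0.51, edgeR adjusted p = 0.0271) and POU3F2 (-1.56, edgeR adjusted p = 0.0116). POU4F1, a factor of sensory neurons, was the higher one at 1.37 (edgeR adjusted p = 0.0352); it and POU3F2 average under 1 CPM and were named after their values were seen. MYT1L, a relative of MYT1 that the rule for naming list genes does not select, was at 0.949 to 1.33 CPM in all libraries. Its log2 difference was -0.01 (edgeR adjusted p = 0.979).

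Of 29 genes of the neuronal cytoskeleton and axon, 6 were higher and 11 lower in number 3 (58.6%), and relatives of DCX and of STMN2 were found on both sides. The doublecortin-like kinase DCLK1 was at 68.7 ± 21.4 CPM in number 3 and 12.9 ± 2.81 CPM in numbers 1 and 2 (log2 difference 2.38, edgeR adjusted p = 0.000119), whereas its relative DCLK2 was at 0.582 ± 0.142 CPM in number 3 and 1.92 ± 0.609 CPM in numbers 1 and 2 (-1.73, edgeR adjusted p = 0.00868). The stathmin STMN3 was at 69.7 ± 2.15 CPM in number 3 and 31.7 ± 4.35 CPM in numbers 1 and 2 (1.15, edgeR adjusted p = 0.000544), opposite in sign to STMN2. The stathmins STMN1 and STMN4, named after their values were seen, were lower like STMN2: STMN1 was at 297 ± 38.5 CPM in number 3 and 494 ± 190.9 CPM in numbers 1 and 2 (-0.69, edgeR adjusted p = 0.0398), and STMN4 at 0.202 ± 0.0784 CPM in number 3 and 1.67 ± 1.28 CPM in numbers 1 and 2 (-2.95, edgeR adjusted p = 0.0101). The neurofilament gene NEFH was higher (1.02, edgeR adjusted p = 0.00419), and the growth cone gene DPYSL5 and the reticulon RTN1 were lower (-0.79 and -1.08, edgeR adjusted p = 0.00572 and 0.00778). Of 15 RNA-binding and splicing genes 26.7% were called: 3 were lower, the neuronal splicing factors NOVA1, NOVA2 and CELF5, at log2 differences of -0.73, -1.07 and -0.65, and 1 was higher, PTBP1, the splicing repressor of non-neuronal cells, at 0.53. ELAVL2, the family member also expressed outside neurons, was at 5.80 ± 0.901 CPM in number 3 and 5.43 ± 0.719 CPM in numbers 1 and 2 and was not called (edgeR adjusted p = 0.785).

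Of 18 tested synaptic and secretory genes 3 were higher and 0 lower in number 3, which is 16.7% of the list, close to the 16.3% of all tested genes. They were CHGA, the granule protein chromogranin A, at 46.3 ± 7.68 CPM in number 3 and 14.8 ± 2.78 CPM in numbers 1 and 2, SCG3 (log2 difference 0.60), and SNAP25 (1.15, below 1 CPM on average and named after its values were seen). Of 22 tested Notch-linked genes, 2 were higher and 5 lower (31.8%). The fringe gene MFNG was at 2.79 ± 1.04 CPM in number 3 and 14.0 ± 4.54 CPM in numbers 1 and 2, and the antiproliferative gene BTG2, a mark of neurogenic divisions in the mouse, at 4.75 ± 0.624 CPM in number 3 and 16.3 ± 3.97 CPM in numbers 1 and 2. ID2 was also lower and ID1 and GADD45G higher (log2 differences of -1.85, 1.45 and 1.67). The other 2 lower genes, named after their values were seen, were HEYL and the ligand gene DLL3 (-1.81 and -0.85). HES5, a Notch target, was at 0 counts in all libraries numbered 1 and 2 and at most 0.124 CPM in number 3, and was not tested. REST itself, the repressor of neuronal genes, was at 90.8 ± 15.6 CPM in number 3 and 91.9 ± 17.1 CPM in numbers 1 and 2 (log2 difference 0.01, edgeR adjusted p = 0.987), and of its 15 listed genes CTDSP1 alone was called (6.67%), lower by a log2 difference of -0.55.

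Genes listed for other cell states moved with the same number, though a list alone does not show which state is present. Of all tested genes 16.3% were called, 7.59% higher and 8.68% lower. Of 18 tested neural progenitor genes 11 were lower and 0 higher in number 3 (61.1%, median log2 difference -0.80). Of 17 pluripotency genes 11 were higher and 0 lower (64.7%, median 0.76). These lists too were chosen with earlier results of these data known, so their counts are no independent evidence about such genes. The summed level of the 19 progenitor genes was 2214 to 2572 CPM in number 3 and 3525 to 5352 CPM in numbers 1 and 2, and that of the 18 pluripotency genes 5840 to 6017 CPM in number 3 and 3786 to 4331 CPM in numbers 1 and 2. HES3, a progenitor repressor, was lower (log2 difference -1.34, edgeR adjusted p = 0.000586), and TERF1 on the pluripotency list higher (1.10, edgeR adjusted p = 0.000882). Of 10 tested non-neural ectoderm markers 6 were higher and 0 lower, with EPCAM at 278 ± 31.4 CPM in number 3 and 55.9 ± 10.9 CPM in numbers 1 and 2, and a summed level over 11 genes of 1538 to 1712 CPM in number 3 and 684 to 1039 CPM in numbers 1 and 2. Of 9 tested genes on the crest and placode list FOXD3 was higher and SOX10 and DLX3 lower (33.3%). That list summed to 27.2 to 28.8 CPM in number 3 and 27.2 to 40.1 CPM in numbers 1 and 2. Of 13 genes on the mesoderm and endoderm list 7 were tested. FOXA2, AFP and TBXT were higher and TBX6 lower, 57.1% of the 7. That list summed to 10.7 to 15.8 CPM in number 3 and 4.48 to 7.18 CPM in numbers 1 and 2. FOXD3, DLX3, AFP and TBXT were named after their values were seen. FOXA2 was at 7.16 ± 2.88 CPM in number 3 and only 0.255 ± 0.239 CPM in numbers 1 and 2. List genes this low in numbers 1 and 2 may have met the low-count filter through number 3, which was not tested. Their calls may then not be independent of the rise. PDX1, on the mesoderm and endoderm list, was at 0 counts in all libraries. The part of these other cell states in the values of the 9 genes was not tested. Without the outlying flat 2, 5 of 9 tested genes were called (2 higher, 3 lower, beside 22.7% of all genes), the progenitor list gave 11 lower and the pluripotency list 11 higher.

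**Figure D5:**
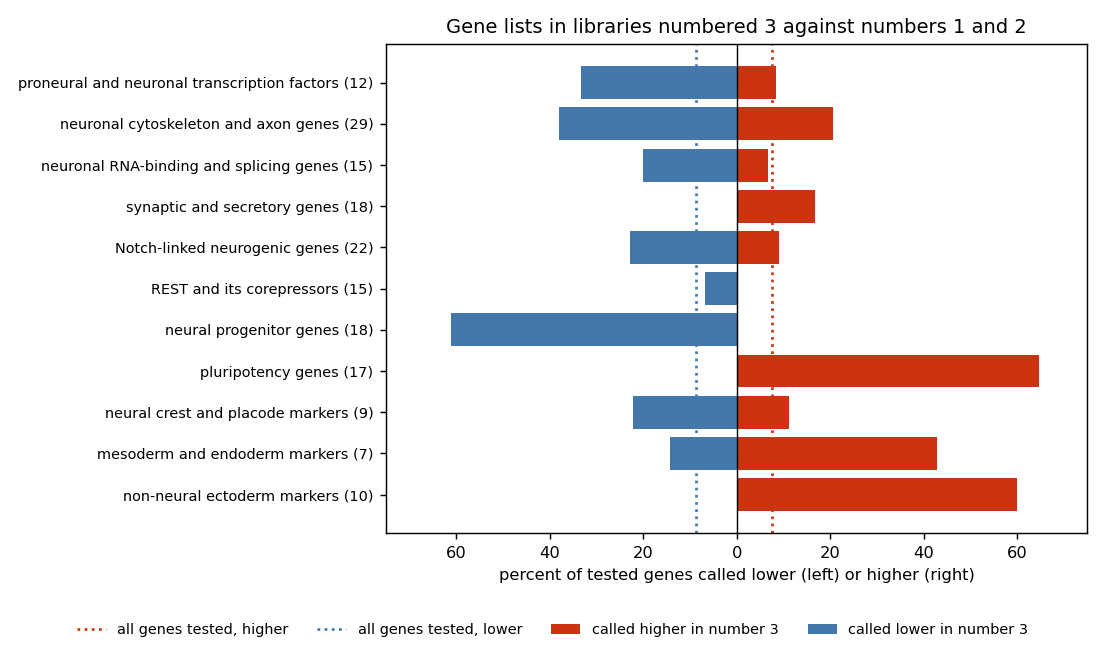
Percent of the tested genes of each list called higher (red, right) or lower (blue, left) in libraries numbered 3 than in numbers 1 and 2, with the number of tested genes in brackets and dotted lines for all genes tested, at 7.59% higher and 8.68% lower. Cytoskeleton and axon genes extend to both sides, progenitor genes only to the left, and pluripotency and non-neural ectoderm genes only to the right.

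For each tested gene the most similar profiles were sought among at least 11953 genes with a mean of 5 CPM or more, by the root mean square difference of log2 CPM over the 9 libraries after centring each gene on its own mean. KIF1A, a kinesin motor of axons, was nearest to TUBB3, at 0.0792, and TRIM14 came next at 0.0944, where the median gene lay at 0.528. KIF1A was itself at 313 ± 60.3 CPM in number 3 and 176 ± 31.3 CPM in numbers 1 and 2. GPRASP1 and SPATA6 were nearest to DCX (0.143 and 0.151, median gene 0.557), SORCS1 and TGFB2 to MYT1 (0.218 and 0.227, median gene 1.13), and NTNG2 and FAM210B to ELAVL4 (0.0879 and 0.0971, median gene 0.518). ICAM5, a neuronal adhesion molecule, was nearest to ELAVL3 (0.200), followed by ENSG00000222012 (0.270), with the median gene at 0.656. SOS1 and PLEKHA1 were nearest to ONECUT2 (0.0906 and 0.0909, median gene 0.449). TSGA10IP and P4HA1 were nearest to STMN2 (0.329 and 0.369, median gene 1.11), and ENSG00000289205 and CLDN7 to INSM1 (0.547 and 0.594, median gene 1.41). These distances describe 9 libraries that share plate shape and number.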

How the data were processed

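Polyadenylated RNA of 9 H9 libraries was sequenced from strand-specific TruSeq libraries, per the labels' protocols. The authors deposited raw counts for each gene; the submitters' processing notes name HISAT2, featureCounts and GRCh38. Not given in the sources used here are versions, annotation and strand setting. Columns were matched to libraries by plate shape and replicate number, and 0 per-sample columns were left aside. Of 62710 identifiers, 62639 had a name and 58274 were in GENCODE v29. No 2 libraries of a shape differed by as little as sampling noise (chi-square per degree of freedom 19.7 to 284.6 over genes with 10 or more counts).

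The tests used R 4.3.3, edgeR 4.0.16 (filterByExpr, TMM, robust quasi-likelihood F tests, common biological coefficient of variation 0.329), limma 3.58.1 and DESeq2 1.42.0. Benjamini-Hochberg adjustment ran over all 23075 tested genes, and genes with an adjusted p under 0.05 were called whatever their fold change. Tests were two-sided. Plate shapes were compared with 1 coefficient per shape over all 9 libraries. Replicate numbers were compared with plate shape as a term, and each comparison is a family of its own. Log2 CPM used a prior count of 2. Poisson counting error is not the limit at these depths except for INSM1 and NEUROG2, where the floor of 3 counts covers counting error only. The code was tested on simulated data.

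The 9 genes, the other lists and the comparison of number 3 were chosen with earlier results of these data known. List genes were named by a rule: up to 3 called genes per list and direction with the smallest p and at least 1 CPM on average, with REST, HES5, ELAVL2, SOX11 and PAX6 always, and the 2 nearest profiles of each gene. Some genes that the rule selects are left out of the text, and some that it does not select are named, among them SOX2, NES, POU5F1, MYT1L and PDX1.

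Shapes share replicate numbers, so pairing was checked by correlating deviations from the group means. Pearson's r for numbers 1, 2 and 3 came to 0.379, 0.0211 and 0.338 between concave and flat, 0.372, 0.397 and 0.620 between convex and flat and 0.579, 0.290 and 0.612 between concave and convex. All 3 numbers had to pass 0.1, which they did for convex with flat and convex with concave but not for concave with flat. The main fits of plate shape held no term for the number, so their p-values and SEs are unpaired. The replicate block was run as an alternative. Alternatives were DESeq2 size factors (RLE), library size only, no filter beyond 1 count, a filter of 1 CPM in 3 libraries, the tests of DESeq2 and limma voom, the replicate block, the 6 libraries of a comparison, numbers 1 and 2 only, a threshold of 0.1, and each library left out. List counts without flat 2 and the test of number 3 between plate shapes were added after seeing the data.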

Additional observations from a re-analysis of the deposited data

Results flagged for a closer look

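ONECUT2 stood out because its libraries numbered 3 moved in opposite directions in different plate shapes. On the log2 scale the library numbered 3 differed from the mean of numbers 1 and 2 by -0.49 in concave cultures, where it was below both, and by 0.56 in flat cultures, where it was above both. The flat libraries stood at 1.46, 0.863 and 1.68 CPM in numbers 1, 2 and 3, so much of the flat difference rests on the outlying flat 2. In convex cultures the value was -0.09. The test of the difference between shapes did not pass (edgeR adjusted p = 0.903).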

How the results depend on the processing

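Between plate shapes 0 genes and 0 of the 9 were called under every alternative run, except that DESeq2 called 1 gene, none of the 9, for convex against flat. The replicate block changed no call. Small differences changed sign. For concave against flat, MYT1 was -0.089 with the replicate block. For convex against flat, MYT1 was -0.14 and INSM1 -0.16 with the block, INSM1 -0.37 and MYT1 -0.093 with limma voom, and ELAVL3 0.004 with library size only. For concave against convex, DCX was 0.01 with library size only, 0.002 with the 6 libraries and 0.085 with numbers 1 and 2 only. The cause was not tested.

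With 1 library left out at a time, log2 differences for concave against flat ran from -0.034 to 0.62 for TUBB3, -1.72 to 0.23 for STMN2, -0.05 to 1.05 for ELAVL3, -2.06 to 0.49 for INSM1 and -0.25 to 0.66 for MYT1. For convex against flat they ran from -1.83 to -0.49 for STMN2, -0.32 to 0.32 for ELAVL3, -1.55 to 0.84 for INSM1 and -0.34 to 0.67 for MYT1. For concave against convex they ran from -0.24 to 0.33 for DCX, -0.52 to 0.091 for TUBB3, -0.45 to 1.30 for STMN2, -0.084 to 0.51 for ELAVL4, -2.13 to 1.28 for INSM1, -0.47 to 0.54 for MYT1 and 0.00 to 0.26 for ONECUT2.

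For number 3, leaving out 1 library gave 1048 to 5402 called genes and 1 to 6 of the 9 (lowest without convex 3, where MYT1 alone was called; 2 without concave 3, 3 without convex 1), and the ONECUT2 difference ran from -0.32 to 0.19. The other settings called 5 or 6 of the 9: STMN2 missed the threshold with limma voom (adjusted p = 0.0908) and ELAVL4 with no filter (adjusted p = 0.0611), and INSM1 was not tested at 1 CPM in 3 libraries. Library size only shifted the median log2 difference of all genes by -0.10, and with it TUBB3 was at 0.75, DCX at -0.92, ELAVL4 at -0.91 and MYT1 at -2.26, all still called. For any difference among numbers, 2714 genes were called, against 4087 with no filter, 4465 with DESeq2 and 4484, with 7 of the 9, at a threshold of 0.1; leaving out 1 library gave 352 to 4999 genes and 0 to 6 of the 9, lowest without convex 3. Depth limits NEUROG2 and INSM1 most.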
